A study of Mus musculus with 32 samples.

Results

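The genes described here are the 3 members of the mouse osteocalcin cluster, *Bglap* (ENSMUSG00000074483), *Bglap2* (ENSMUSG00000074486) and *Bglap3* (ENSMUSG00000074489), chosen by symbol from the 31053 genes listed for every library. They were followed in bone marrow-derived stromal cells (BMSCs), plastic-adherent cells of the marrow, taken from the femurs of Diversity Outbred (DO) mice and cultured in osteogenic medium; the differentiated cultures are called BMSC-OBs. DO mice are outbred, each animal carrying its own mixture of several inbred founder genomes. Cells of 4 or 5 mice were combined before loading, giving 16 pools from 77 mice, all of them under the same culture and with no treated, mutant or control group; the labels give no batch other than the pool and the sequencing run. The assignment of cells to mice was left aside, and each pool therefore counts as 1 replicate in which the cells of its mice are summed. Mice thus weigh by their cells and UMIs. Classes of the same pool can hold its mice in different proportions, which was not tested.

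Osteocalcin, also called bone gamma-carboxyglutamate protein, is a small secreted protein of mature osteoblasts that binds bone mineral through glutamate residues carboxylated in a vitamin K-dependent reaction. It is a classic late marker of the osteoblast lineage, since its transcript appears after the collagens and alkaline phosphatase, and its undercarboxylated form has been studied as a hormone. Humans have a single gene, whereas the mouse carries a tandem cluster of near-identical copies, of which *Bglap* and *Bglap2* are the bone-expressed genes and *Bglap3* was first described outside bone.

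All 3 copies lie on the minus strand of chromosome 3 in GRCm38 (GENCODE M21 coordinates). *Bglap* spans chr3:88383501-88384464, *Bglap2* spans chr3:88377736-88378699 and *Bglap3* spans chr3:88368616-88372743. In the single transcript model taken for each gene there are 4 exons, a coding sequence of 288 bases and a 3′ untranslated region of 134 bases. These transcripts are 440, 471 and 717 bases long in the same order. The coding sequences are shown because the copies can only be told apart at few bases; they run 5′ to 3′ on the strand of the gene, with capitals at the positions where the 3 copies differ.
Bglap: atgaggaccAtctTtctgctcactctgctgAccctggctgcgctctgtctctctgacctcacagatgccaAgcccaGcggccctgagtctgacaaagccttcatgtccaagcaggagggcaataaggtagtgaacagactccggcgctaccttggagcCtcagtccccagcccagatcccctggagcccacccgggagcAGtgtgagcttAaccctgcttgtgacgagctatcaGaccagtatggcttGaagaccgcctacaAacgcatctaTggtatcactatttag
Bglap2: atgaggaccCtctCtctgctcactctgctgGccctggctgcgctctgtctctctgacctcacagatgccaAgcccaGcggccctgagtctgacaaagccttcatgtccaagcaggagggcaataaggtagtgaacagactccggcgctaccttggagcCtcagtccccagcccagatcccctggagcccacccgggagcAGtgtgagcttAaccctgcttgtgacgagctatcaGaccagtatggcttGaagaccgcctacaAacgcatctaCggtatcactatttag
Bglap3: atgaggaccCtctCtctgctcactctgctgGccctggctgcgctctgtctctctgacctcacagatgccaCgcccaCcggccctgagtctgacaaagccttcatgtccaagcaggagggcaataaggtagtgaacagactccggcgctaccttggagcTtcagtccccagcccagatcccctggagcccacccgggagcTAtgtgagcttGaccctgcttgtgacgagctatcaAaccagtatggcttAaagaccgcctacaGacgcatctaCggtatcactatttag

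*Bglap* and *Bglap2* differ at 4 of the 288 coding positions (98.6% identity), which are A10C, T14C, A31G and T273C with the base of *Bglap* first and positions counted from the A of the start codon. *Bglap3* differs from *Bglap* at 13 positions (95.5% identity) and from *Bglap2* at 9 (96.9% identity). The libraries tag the 3′ ends of transcripts, and there the copies are closer still. Over the last 391 bases of the transcript, *Bglap* and *Bglap2* differ at only 1 base, T273C, which lies 150 bases from the 3′ end, and 212 of the 302 windows of 90 bases in that stretch (70.2%) are identical between them. *Bglap3* first differs from both others 79 bases from the end, and none of the 302 windows is shared with either. Only reads that cover a distinguishing base can be given to a single copy, GRCm38 is the C57BL/6J reference, and how reads from the other founder genomes were assigned between the copies was not tested; the split between *Bglap* and *Bglap2* is uncertain for that reason, and the sum of the 3 copies is given beside it. UMIs count molecules at their 3′ end, so levels of the copies are given without division by length. Reads that match more than 1 copy cannot be counted for any of them, which by these windows can affect *Bglap* and *Bglap2* more than *Bglap3*, and the sum as well; the size of this loss was not tested.

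Promoters from RefSeq (GRCm38.p6), 250 bases before to 50 bases after the start site, are shown for *Bglap* and *Bglap3*, the members matched there, since the copies moved in the same direction between the osteogenic classes. Capitals mark the motifs found, which were searched for by letters on both strands. Those of *Bglap* (chr3:88384417-88384716, minus strand) include TTACATCA, an element known as OSE1, at -54, the TATA box letters TATAAA at -27, and CCAAT at -90 overlapping the homeobox core TAATTG, read on the other strand as CAATTA, at -89. The start of *Bglap3* shown (chr3:88369782-88370081, minus strand) is 1 of 3 listed and holds CCAAT at -177 and at +16. It is the start of the transcript model taken here and lies within the span given for the gene.
Bglap: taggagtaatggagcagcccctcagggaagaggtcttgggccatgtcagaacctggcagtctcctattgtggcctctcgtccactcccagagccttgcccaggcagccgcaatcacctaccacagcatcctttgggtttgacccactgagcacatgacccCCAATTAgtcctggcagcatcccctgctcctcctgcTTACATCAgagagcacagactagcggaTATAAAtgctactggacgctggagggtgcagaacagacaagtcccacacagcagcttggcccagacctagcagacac
Bglap3: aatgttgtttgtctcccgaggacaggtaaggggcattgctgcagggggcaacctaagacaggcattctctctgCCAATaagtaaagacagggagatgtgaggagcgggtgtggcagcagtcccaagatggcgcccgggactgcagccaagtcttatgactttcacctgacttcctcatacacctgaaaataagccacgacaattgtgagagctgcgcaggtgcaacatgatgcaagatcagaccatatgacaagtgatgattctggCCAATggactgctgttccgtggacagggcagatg

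Among 32851 promoters of this length, TTACATCA was found in 1.1%, TAATTG in 8%, TATAAA in 13.6% and CCAAT in 37.4%. AACCACA, the form of the RUNX site searched for, was found in 5.27%. The letters AACCACA were in neither of the promoters shown. That of *Bglap* holds TACCACA, which differs from them at the first base. Other forms of the RUNX site were not searched for. These matches describe the sequence only.

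Single-cell RNA-seq counts of unique molecular identifiers (UMIs), 1 per captured transcript, came from droplets that each carry a barcode. In the first sequencing run the pools held between 53990642 and 100777353 UMIs, and 88909 of 107853 barcodes passed the limits on genes and on mitochondrial and ribosomal UMIs. Of the distinct barcodes, 1521 (1.43%) occurred in more than 1 pool. Cells were assigned to a leukocyte or mesenchymal side by summed markers and to classes by mean scores of class markers, none of them an osteocalcin gene. This gave 9809 late mesenchymal progenitor-like (LMP-like) cells, 7927 marrow adipogenic lineage precursor-like (MALP-like) cells, 7607 osteoblast progenitor-like (OBP-like) cells, 5002 and 4872 cells like osteoblasts of population 1 (OB1-like) and population 2 (OB2-like), 3293 osteocyte-like (Ocy-like) cells and 15930 leukocytes. The leukocytes are the whole leukocyte side, including 7147 cells left without a type and the osteoclast-like cells. Classes are ranges of a score: 12622 of 51132 cells on the mesenchymal side stayed unassigned, and 7541 lay near the boundary. A further 14528 cells fell on neither side, and 7319 met the mesenchymal marker limits with under 2000 UMIs. Osteocalcin was not examined in these 2 groups. A list of osteogenic genes that was not used for the classes as a whole (*Ibsp*, *Alpl*, *Ifitm5*, *Sp7*, *Col1a1* and *Sparc*, of which only *Ifitm5* was a class marker) had median sums of 1020 UMIs per 10000 in OBP-like, 1440 in OB1-like, 1010 in OB2-like and 1680 in Ocy-like cells, against 147 in LMP-like, 47.0 in MALP-like and 24.8 in leukocytes. The summed endothelial and glial markers had a median of 0 in every class. Pool 18 stood apart in the share of *Bglap2*, as described below, and pool 13 had the lowest *Bglap* level in OB1-like cells. The OB1-like cells of pool 13 were also the shallowest, with a median of 3349 UMIs against 11867 to 30894 in the other pools, and its OBP-like (6630), OB2-like (4346) and Ocy-like cells (8789) were the shallowest of their classes; the part of depth in its levels was not tested. Values without either pool are given where they changed a call of edgeR, of copy shares in the osteogenic classes or of relations across pools. The permutation tests of levels between classes, and those of copy shares in LMP-like and MALP-like cells, were not repeated without these pools.

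By their means over pools, osteocalcin transcripts were at a high level in the 4 osteogenic classes and at a low level in the other classes. OB1-like cells held the most, with 225 ± 97.8 UMIs of the 3 copies per 10000 UMIs of all genes (SD, n = 16 pools). OBP-like cells held 108 ± 43.9 and Ocy-like cells 101 ± 41.4, and OB2-like cells held 65.5 ± 38.9 (n = 14 pools with at least 20 such cells). LMP-like cells held 7.59 ± 4.37 and MALP-like cells 4.17 ± 1.63, against 2.54 ± 1.04 in leukocytes, blood cells that are not known to make osteocalcin and are taken here as the level that free RNA leaves in a droplet. Their mean share of *Bglap3* was above that of every mesenchymal class, as described below, so their UMIs did not have the proportions of any of these classes. *Bglap* was the most abundant copy and *Bglap3* the least in each of these classes.

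*Bglap*, the copy with most UMIs, had its highest level in OB1-like cells, where it ranged over pools from 67.6 UMIs per 10000 (pool 13) through a median of 143 to 343 (pool 18). In OBP-like cells it ranged from 38.4 (pool 13) through 63.8 to 139 (pool 1), and in Ocy-like cells from 32.7 (pool 2) through 68.1 to 117 (pool 3). The ranges of these classes overlapped across pools, and OB1-like cells were above OBP-like cells of the same pool in 14 of 16 pools. In OB2-like cells the level ran from 6.75 (pool 6) through 42.0 to 89.6 (pool 4). Outside the osteogenic classes it ran from 2.00 (pool 14) through 3.82 to 13.2 (pool 2) in LMP-like cells, from 1.01 (pool 10) through 2.61 to 4.84 (pool 4) in MALP-like cells and from 0.450 (pool 10) through 1.74 to 2.74 (pool 3) in leukocytes. The lowest OBP-like pool thus lay above the highest LMP-like pool, whereas OB2-like and LMP-like cells overlapped across pools, as did MALP-like cells and leukocytes. For the sum of the copies, OB2-like cells of pool 6 were at 12.3 and LMP-like cells of pool 2 at 20.6. Within pools, OB2-like cells were above LMP-like cells in all 14.

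*Bglap2* followed the same order of classes at a lower level, with 53.8 ± 37.8 UMIs per 10000 in OB1-like, 32.3 ± 17.8 in OBP-like, 25.8 ± 17.1 in Ocy-like and 19.1 ± 15.2 in OB2-like cells. In OB1-like cells it ran from 7.34 (pool 18) through 46.1 to 159 (pool 8), which is 21.6-fold from the lowest to the highest pool, against 5.07-fold for *Bglap*. This fold rests on pool 18, which had the fewest OB1-like cells (33), and the next lowest pool was at 19.4 (pool 13). Pool 18, highest of all pools for *Bglap* in that class, was lowest for *Bglap2* there and also in LMP-like, MALP-like, OBP-like, OB2-like and Ocy-like cells and in leukocytes. *Bglap2* was at 2.48 ± 1.56 in LMP-like cells, 1.10 ± 0.607 in MALP-like cells and 0.622 ± 0.379 in leukocytes.

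*Bglap3* was the rarest copy, with 7.78 ± 5.54 UMIs per 10000 in OB1-like cells, from 1.85 (pool 13) through 6.07 to 19.3 (pool 5). It was at 4.49 ± 2.62 in OBP-like, 3.65 ± 2.96 in Ocy-like and 2.74 ± 2.25 in OB2-like cells. LMP-like cells (0.443 ± 0.301), MALP-like cells (0.347 ± 0.219) and leukocytes (0.297 ± 0.151) lay close together and overlapped across pools.

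**Figure D1:**
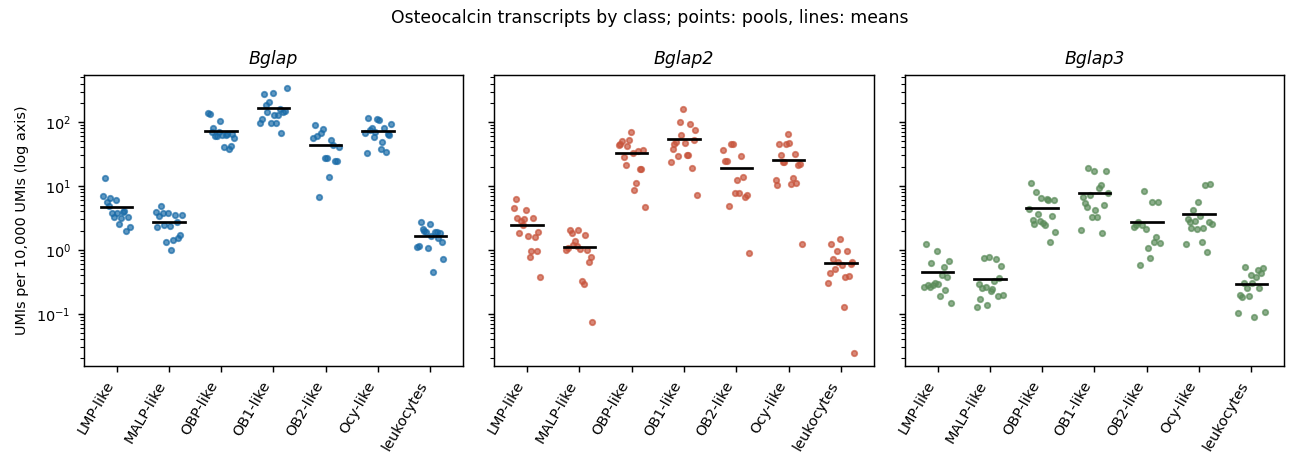
UMIs of *Bglap*, *Bglap2* and *Bglap3* per 10000 UMIs (log axis) in each class, with a point per pool in pool order and a line at the mean. All 3 copies are highest in OB1-like cells and lowest in leukocytes, and in the *Bglap2* panel the last point of each class, pool 18, lies below the others.

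Neighbours in this order were compared within pools by a two-sided exact permutation test (sign flips over pools, adjusted over the 6 neighbouring pairs of each gene). For the sum of the copies, OB1-like cells exceeded OBP-like cells in 14 of 16 pools (difference of 116 ± 98.9 UMIs per 10000, adjusted permutation p = 0.000595). OBP-like and Ocy-like cells did not differ beyond their spread (difference of 7.59 ± 51.2, higher in 9 of 16 pools, adjusted permutation p = 0.573), and this pair also missed the threshold for each copy, with adjusted permutation p-values of 0.978 for *Bglap*, 0.0553 for *Bglap2* and 0.298 for *Bglap3*. Ocy-like cells exceeded OB2-like cells in 12 of 14 pools for the sum (adjusted permutation p = 0.00190), but for *Bglap3* the pair missed the threshold (10 of 14 pools, adjusted permutation p = 0.110). The drop from OB2-like to LMP-like cells was seen for each copy in all 14 pools with the smallest p these pools allow, 0.000122 before adjustment. At the low end, *Bglap* and *Bglap2* still differed between LMP-like and MALP-like cells and between MALP-like cells and leukocytes (adjusted permutation p of 0.000641 for *Bglap* and 0.000244 for *Bglap2* in both pairs), while *Bglap3* did not pass between LMP-like and MALP-like cells (adjusted permutation p = 0.110) or between MALP-like cells and leukocytes (adjusted permutation p = 0.163).

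Counted per droplet rather than per 10000 UMIs, an OB1-like cell held a mean of 421 ± 230 osteocalcin UMIs, an OBP-like cell 250 ± 123, an Ocy-like cell 169 ± 87.2, an OB2-like cell 124 ± 94.4, an LMP-like cell 16.1 ± 9.67, a MALP-like cell 4.60 ± 1.82 and a leukocyte 1.38 ± 0.575. The classes differ in depth, with median UMI counts per cell of 17248, 21289, 14670, 16821, 19661, 9764 and 4684 in that order. On this scale Ocy-like cells lay below OBP-like cells in 14 of 16 pools (adjusted permutation p = 0.00278), which they did not per 10000 UMIs. Other calls made per 10000 UMIs were lost per droplet, namely OB1-like over OBP-like cells for *Bglap2* (adjusted permutation p = 0.0628) and *Bglap3* (adjusted permutation p = 0.0566) and Ocy-like over OB2-like cells for *Bglap2* (adjusted permutation p = 0.0637). Each of the 6 mesenchymal classes lay above leukocytes in every pool for each copy. The median over pools of the ratio to leukocytes was 298 for OB1-like cells, with a range of 67.9 to 1045, 10.2 for LMP-like cells (5.41 to 37.0) and 3.22 for MALP-like cells (1.94 to 7.31).

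On average over pools, most droplets of every class held at least 1 osteocalcin UMI. The share was 99.8% ± 0.437 in OB1-like, 98.5% ± 2.64 in OBP-like, 96.2% ± 3.57 in Ocy-like and 95.2% ± 9.85 in OB2-like cells, 91.7% ± 9.73 in LMP-like and 80.2% ± 12.9 in MALP-like cells, and it was 65.1% ± 16.4 in leukocytes, so that a UMI alone did not mark a cell that makes the transcript. At a depth of 2000 UMIs per cell the share was 97.2% ± 2.26 in OB1-like, 86.3% ± 8.15 in OBP-like, 81.1% ± 7.02 in Ocy-like, 78.1% ± 16.1 in OB2-like and 48.1% ± 11.9 in LMP-like cells. MALP-like cells, at 38.0% ± 10.9, were then level with leukocytes at 38.9% ± 13.1. For *Bglap3* alone the shares at that depth were 8.26% ± 4.18 in LMP-like, 6.52% ± 3.46 in MALP-like cells and 6.14% ± 2.96 in leukocytes. A share of droplets with a UMI therefore did not set MALP-like cells apart from leukocytes at equal depth, although their mean UMIs of the sum over pools, per droplet and per 10000, were higher.

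Blood cell types had mean levels from 1.91 to 2.92 UMIs per 10000 for the sum. It was 2.44 ± 1.09 in macrophage-like cells (n = 16 pools), 2.44 ± 1.14 in monocyte-like cells (n = 7), 2.55 ± 0.929 in granulocyte-like cells (n = 11), 2.92 ± 0.683 in T-cell-like cells (n = 4) and 1.95 ± 0.868 in osteoclast-like cells (n = 14), over pools with at least 20 cells of the type. Basophil-like cells reached 20 cells in only 2 pools, at 1.30 in pool 18 and 2.52 in pool 6. The types were compared as values only. Pool 10 was lowest and pool 8 highest among leukocytes, at 0.668 and 4.38.

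Within a class, single cells differed widely. OB1-like cells had quartiles of 51.3 and 288 osteocalcin UMIs per 10000 around a median of 124, and the cell with most UMIs held 10052 of them. All 3 copies were detected in 79.4% of OB1-like cells and none of them in 0.220%. OBP-like cells had a lower median of 33.5 with a 95th percentile of 457, Ocy-like cells had 29.4 and 409, and OB2-like cells had 20.5 and 262. LMP-like cells had a median of 2.23 and a 95th percentile of 36.6, and their highest cell held 1583 UMIs. MALP-like cells had a median of 1.77, a 75th percentile of 3.58 and a 95th of 14.7, and their highest cell held 1782 UMIs. Leukocytes had a median of 1.88, a 75th percentile of 4.37 and a 95th of 12.4. Per 10000 UMIs, the median and 75th percentile of MALP-like cells thus lay below those of leukocytes, while their 95th percentile lay above. Their highest cell, in UMIs, lay above as well. In leukocytes none of the copies was found in 35.1% of cells and the highest cell held 27 UMIs. Leukocytes were defined as cells with no more mesenchymal than leukocyte marker UMIs, which limits the osteoblast RNA they can hold. LMP-like and MALP-like cells had no such limit beyond the lead of their class score. The part of this difference in the upper tails and in the means was not tested. No doublet caller was run, and the part of doublets in the upper tail of LMP-like and MALP-like cells was not tested.

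On the log2 scale, the step from LMP-like to OBP-like cells was the largest of the 4 comparisons within the osteoblast lineage. In UMIs per 10000 the mean sum went from 7.59 to 108 at this step and from 108 to 225 at the next, to OB1-like cells. Summed counts per pool and class went into edgeR's quasi-likelihood test, in which the pool was a block and p-values were adjusted over all genes, and all 3 copies passed the filter on low counts in each of the 8 comparisons. All 3 were higher in OBP-like than in LMP-like cells, where 77.6% of the 12122 genes tested passed the threshold and 36.6% passed as higher. The log2 fold change was 4.32 ± 0.116 (SE) for *Bglap*, 4.04 ± 0.118 for *Bglap2* and 3.70 ± 0.0952 for *Bglap3*, each higher in 16 of 16 pools, with edgeR adjusted p-values of 7.45e-19, 3.05e-18 and 3.93e-19.

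From OBP-like to OB1-like cells all 3 copies rose again, in a comparison where 54.7% of genes passed and 28.1% rose. *Bglap* rose by 1.33 ± 0.174 (log2, edgeR adjusted p = 8.34e-07, 14 of 16 pools), *Bglap2* by 0.88 ± 0.167 (edgeR adjusted p = 0.000101, 13 of 16 pools) and *Bglap3* by 0.86 ± 0.172 (edgeR adjusted p = 0.000179, 14 of 16 pools). OB2-like cells had less than OB1-like cells in every one of 14 pools, where 55.7% of genes passed and 27.5% were lower, with log2 fold changes of -2.16 ± 0.274 for *Bglap*, -1.87 ± 0.304 for *Bglap2* and -1.72 ± 0.255 for *Bglap3* and edgeR adjusted p-values of 2.44e-06, 3.77e-05 and 1.4e-05. Ocy-like cells were also below OB1-like cells, where 45.8% of genes passed and 23.6% were lower, by nearly the same amount for each copy. The log2 fold changes were -1.29 ± 0.0994, -1.26 ± 0.151 and -1.22 ± 0.121 in the order of the gene names, lower in 16, 15 and 15 of 16 pools, with edgeR adjusted p-values of 4.44e-11, 1.25e-07 and 4.45e-09. The copies therefore moved in the same direction in all 4 of these comparisons, and the differences between their fold changes were not tested.

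Away from the osteoblast lineage, MALP-like cells had less than LMP-like cells, where 73.1% of genes passed and 36.6% were lower. The log2 fold change was -0.97 ± 0.153 for *Bglap* (edgeR adjusted p = 8.74e-06, lower in 14 of 16 pools), -1.40 ± 0.148 for *Bglap2* (edgeR adjusted p = 2.83e-08, lower in 15) and -0.56 ± 0.146 for *Bglap3* (edgeR adjusted p = 0.00181, lower in 12). The call for *Bglap3* was lost without the block for the pool (edgeR adjusted p = 0.0702), and the levels of 0.443 and 0.347 UMIs per 10000 had missed the threshold of the exact permutation test. Against leukocytes, where 84.1% of genes passed and 43.4% were higher, LMP-like cells were higher in *Bglap* by 1.36 ± 0.185 and in *Bglap2* by 1.93 ± 0.221, each in 16 of 16 pools (edgeR adjusted p = 8.75e-07 and 7.06e-08). For *Bglap3* the difference of 0.43 ± 0.174 (edgeR adjusted p = 0.0284, 12 of 16 pools) ended under stricter class boundaries and in the second run. OBP-like cells exceeded leukocytes in 16 of 16 pools for each copy, where 86.7% of genes passed and 43.7% were higher, by 5.71 ± 0.212, 6.00 ± 0.190 and 4.14 ± 0.211 on the log2 scale (edgeR adjusted p = 3e-16, 1.98e-17 and 7.66e-14).

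MALP-like cells were the class closest to leukocytes in level, and their difference in level depended on the scaling and on the measure. The median cell per 10000 UMIs and the share of droplets with a UMI at equal depth, given above, were not higher than in leukocytes. Per droplet, the median MALP-like cell held 2.0 osteocalcin UMIs and the median leukocyte 1.0. Leukocytes were shallower (median of 4684 UMIs per cell against 9764), and the part of depth in these measures was not tested. In this comparison 84.7% of genes passed and 41% were higher, and the log2 fold change was 0.38 ± 0.151 for *Bglap* (edgeR adjusted p = 0.0270, 14 of 16 pools), 0.51 ± 0.128 for *Bglap2* (edgeR adjusted p = 0.00108, 15 of 16 pools) and -0.16 ± 0.124 for *Bglap3* (edgeR adjusted p = 0.228). The mean level of *Bglap3* per 10000 UMIs had the opposite sign (0.347 against 0.297, higher in MALP-like cells in 9 of 16 pools), and with library totals in place of edgeR's composition scaling the log2 fold change was 0.20, beside 0.73 for *Bglap* and 0.86 for *Bglap2*. With stricter class boundaries the difference was 0.02 for *Bglap* (edgeR adjusted p = 0.843) and 0.19 for *Bglap2* (edgeR adjusted p = 0.111), and neither call held, while *Bglap3* then passed as lower (-0.31, edgeR adjusted p = 0.0289). Without pool 18, *Bglap* was higher by 0.28 (edgeR adjusted p = 0.0583).

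**Figure D2:**
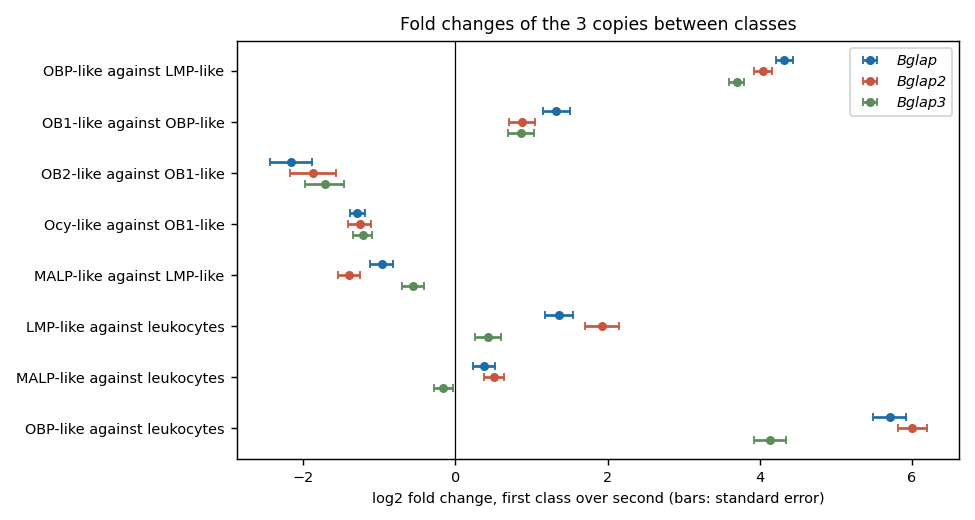
Log2 fold change of each copy in the 8 comparisons between classes, first class over second, with bars of 1 standard error from edgeR. The 3 copies lie on the same side of 0 in every comparison but MALP-like cells against leukocytes, where *Bglap3* is at -0.16.

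The proportion of the 3 copies differed widely between pools. In OB1-like cells *Bglap* made up 72.6% ± 9.53 of the UMIs of the cluster, *Bglap2* 23.9% ± 9.29 and *Bglap3* 3.49% ± 2.32 (SD, n = 16 pools). The share of *Bglap2* ran from 2.05% in pool 18 (348 of 16966 UMIs, 95% exact binomial interval 1.84 to 2.28%) through a median of 23.7% to 38.7% in pool 7 (10606 of 27417 UMIs, 38.1 to 39.3%). These intervals cover counting error only. That of *Bglap3* ran from 1.69% in pool 1 through 2.42% to 10.1% in pool 5. The second run of the same libraries gave shares within 1.95 percentage points of the first in OB1-like cells for all copies and pools. As both runs read the same libraries, this covers sequencing and not the spread between cultures, and 10 of the 16 *Bglap3* shares lay between 1.69% and 2.54%, closer together than the largest difference between runs for that copy (1.12 points). In MALP-like cells the runs lay further apart, by up to 9.10 points for *Bglap3* and 7.89 for *Bglap2*. In OB2-like cells they differed by up to 5.14 points for *Bglap*.

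The pools at the extremes for *Bglap2* stood out in other classes too. The share of *Bglap2* in pool 18 was 7.31% in OBP-like, 2.16% in OB2-like, 1.26% in Ocy-like, 13.3% in LMP-like and 1.95% in MALP-like cells and 2.90% in leukocytes, the lowest of all pools in each. In pool 7 it was 42.1% in OBP-like, 38.7% in Ocy-like and 34.3% in leukocytes, the highest in each of these, while in OB2-like cells it was 39.8%, below pool 6 at 40.3%. Across the 16 pools, the share in OB1-like cells went with that in leukocytes of the same library with a Pearson correlation of 0.933 for *Bglap*, 0.837 for *Bglap2* and 0.722 for *Bglap3*, given as a description since both come from 1 droplet library. Over all pairs of classes the correlation ran from 0.717 to 0.944 for *Bglap*, from 0.572 to 0.936 for *Bglap2* and from 0.223 to 0.870 for *Bglap3*. The lowest values were between OB1-like and OB2-like cells for *Bglap* and *Bglap2* and between OBP-like and OB2-like cells for *Bglap3* (n = 14 pools). Pool 5, highest for *Bglap3* in OB1-like cells, had a share of 3.12% in OB2-like cells. Pool 3 departed from the relation with leukocytes for *Bglap2*, with 14.1% *Bglap2* in OB1-like cells and 29.4% in leukocytes.

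Beside these differences between pools, the proportions shifted between osteogenic cells and the leukocyte background of the same pool. In leukocytes the shares were 65.3% ± 7.70 *Bglap*, 22.8% ± 7.95 *Bglap2* and 12.0% ± 4.10 *Bglap3*. The share of *Bglap3* was lower than in leukocytes in OBP-like, OB1-like, OB2-like and Ocy-like cells in every pool, by -8.47 ± 2.91 percentage points in OB1-like cells (two-sided exact permutation test, adjusted p = 4.58e-05, from the smallest p that 16 pools can give, 3.05e-05). The share of *Bglap* was higher in OB1-like cells by 7.33 ± 3.64 points and in Ocy-like cells by 6.76 ± 3.16 points, each in 16 of 16 pools (adjusted exact permutation p = 4.58e-05 for both). *Bglap2* was higher in OBP-like cells by 5.76 ± 4.51 points in 13 of 16 pools (adjusted exact permutation p = 0.000595), and in OB2-like cells by 4.70 ± 7.03 points in 9 of 14 pools (adjusted exact permutation p = 0.0344; without pool 13 the difference was 4.63 and the adjusted exact permutation p 0.0560). In OB1-like and Ocy-like cells it missed the threshold (adjusted exact permutation p = 0.418 and 0.161). In LMP-like cells *Bglap2* was above leukocytes by 8.35 ± 3.95 points in every pool and *Bglap3* below by -5.82 ± 2.81 in every pool (adjusted exact permutation p = 4.58e-05 for both). In MALP-like cells *Bglap2* was above by 3.04 ± 3.51 points, in 11 of 16 pools, and *Bglap3* differed by -2.86 ± 3.17, higher in 3 pools (adjusted exact permutation p = 0.00549 for both). *Bglap* missed the threshold there (-0.177 ± 3.69, adjusted exact permutation p = 0.850). The runs of this class lay up to 9.10 points apart for *Bglap3*. The *Bglap3* share of leukocytes, 12.0%, was above that of MALP-like cells (9.10% ± 5.20), LMP-like cells (6.14% ± 2.76) and each osteogenic class. The mix of mice can differ between classes of a pool, and its part in these shifts was not tested.

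**Figure D3:**
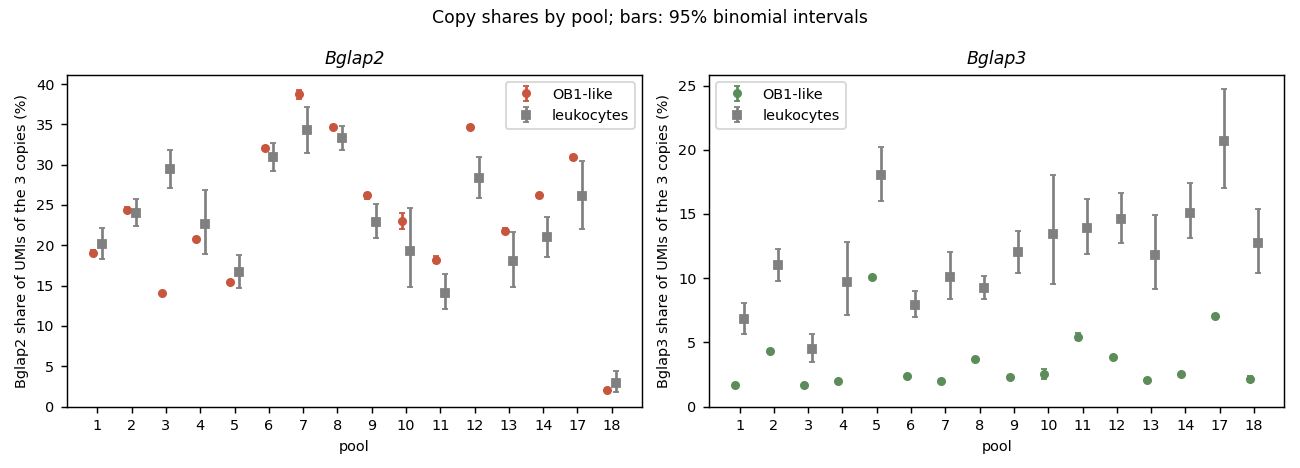
Share of *Bglap2* (left) and *Bglap3* (right) in the UMIs of the 3 copies (%), for OB1-like cells (coloured circles) and leukocytes (grey squares) of each pool, with 95% binomial intervals. Pool 18 is near 2% for *Bglap2* in both, and *Bglap3* is higher in leukocytes than in OB1-like cells in all 16 pools.

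Single cells of a pool did not share 1 proportion of copies. The share of *Bglap2* in *Bglap* and *Bglap2* together was taken in the 10739 osteogenic cells (OBP-like, OB1-like, OB2-like or Ocy-like, 51.7% of 20774) with at least 50 UMIs of both copies together. The boundaries used here were chosen after the values had been seen, and the counts are given as a description with no test. In 1267 cells the share was under 2%. Of these, 1258 came from the 7 pools 1, 3, 5, 10, 11, 17 and 18, where they were 1258 of 4699 cells, and the other 9 pools held 9 in 6040 cells.

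In pool 18, 241 of 368 cells were under 2%, in pool 3 it was 362 of 1103, in pool 11 190 of 634, in pool 1 117 of 397, in pool 5 199 of 1051, in pool 17 120 of 786 and in pool 10 29 of 360. The remaining cells of these pools had a median share between 19.4% (pool 18) and 41.4% (pool 3). Each of these pools thus held cells with nearly no UMIs assigned to *Bglap2* beside cells with a large part of them. How reads from other founder genomes were assigned between *Bglap* and *Bglap2* was not tested. Summed over the cells under 2%, *Bglap2* was 0.241% of the UMIs of both copies in pool 18 (236 of 97805) and at most 1.24% (pool 11). The second run, which reads the same libraries and so covers sequencing only, mostly showed the same cells. Of 1120 cells under 2% that again held 50 UMIs there, 1041 were again under 2%, against 90 of 8096 other cells. Pool 11 held 37 of these 90. The classes shared in the split unequally. In pool 3, 275 of 439 OB1-like and 18 of 245 OBP-like cells were under 2%, in pool 11 the counts were 12 of 60 and 170 of 444, and in pool 18 they were 17 of 20 and 123 of 233.

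**Figure D4:**
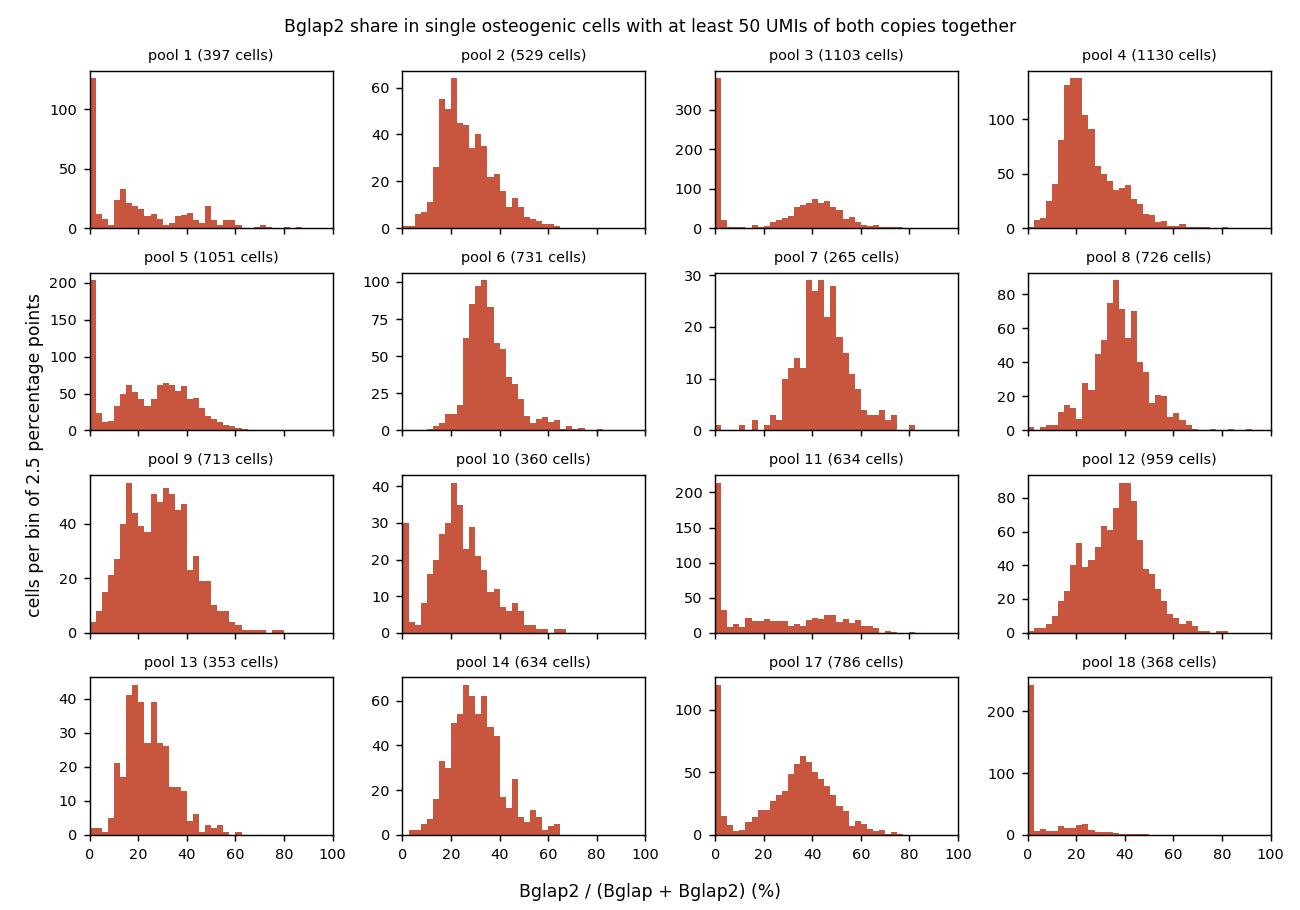
Number of osteogenic cells of each pool (bars, bins of 2.5 percentage points) by the share of *Bglap2* in the UMIs of *Bglap* and *Bglap2* (%), for cells with at least 50 of these UMIs. Pools 1, 3, 5, 10, 11, 17 and 18 have a high bar at the left edge followed by low bars, and the other pools do not. The groups are not fully apart, with 78 cells from 2% to 10% in pool 11.

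Levels of *Bglap* in cells with nearly no *Bglap2* are given beside those of the other cells as a description only, since cells entered by having 50 UMIs of both copies together, which a cell with nearly no *Bglap2* reaches only through *Bglap*. Among OB1-like cells, median *Bglap* in cells under 2% and in the rest was 289 and 117 UMIs per 10000 in pool 3 (275 and 164 cells), 133 and 104 in pool 5 (169 and 351 cells), 153 and 112 in pool 11 (12 and 48 cells), 73.9 and 71.0 in pool 1 (100 and 89 cells), and 93.6 and 188 in pool 17 (28 and 119 cells). The sum of all 3 copies was 293 against 194 in pool 3, 170 against 153 in pool 5, 181 against 184 in pool 11, 74.8 against 120 in pool 1 and 122 against 300 in pool 17. Pools 10 and 18 had too few OB1-like cells on 1 side for such a median.

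*Bglap3* showed a split of its own. Its share in *Bglap* and *Bglap3* together was over 15% in 902 of 9718 osteogenic cells with at least 50 UMIs of both. In the second run of the same libraries, 699 of 788 such cells that could be checked were again over 15%. At least 5% of cells were over 15% in the 9 pools 2, 5, 8, 9, 10, 11, 12, 14 and 17, with 169 of 712 cells in pool 17 and 230 of 982 in pool 5. The cells over 15% had a median share of 33.0% in pool 17 and 21.5% in pool 5, against 5.94% and 3.67% in the remaining cells.

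In some pools the splits fell in part on the same cells. Of the cells under 2% for *Bglap2*, all of which in these pools also held 50 UMIs of *Bglap* and *Bglap3*, those over 15% for *Bglap3* were 195 of 199 in pool 5, 105 of 120 in pool 17, 48 of 190 in pool 11 and 10 of 29 in pool 10. In pools 1, 3 and 18 it was 0 of 117, 0 of 362 and 0 of 241, where only 3, 1 and 0 cells in all were over 15% for *Bglap3*. Nearly no *Bglap2* thus went with high *Bglap3* in some of these pools and not in others. Pools 12 and 14 had no cell under 2% for *Bglap2*. Among OB1-like cells of pool 5, median *Bglap3* was 34.6 UMIs per 10000 in cells under 2% and 4.65 in the rest.

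**Figure D5:**
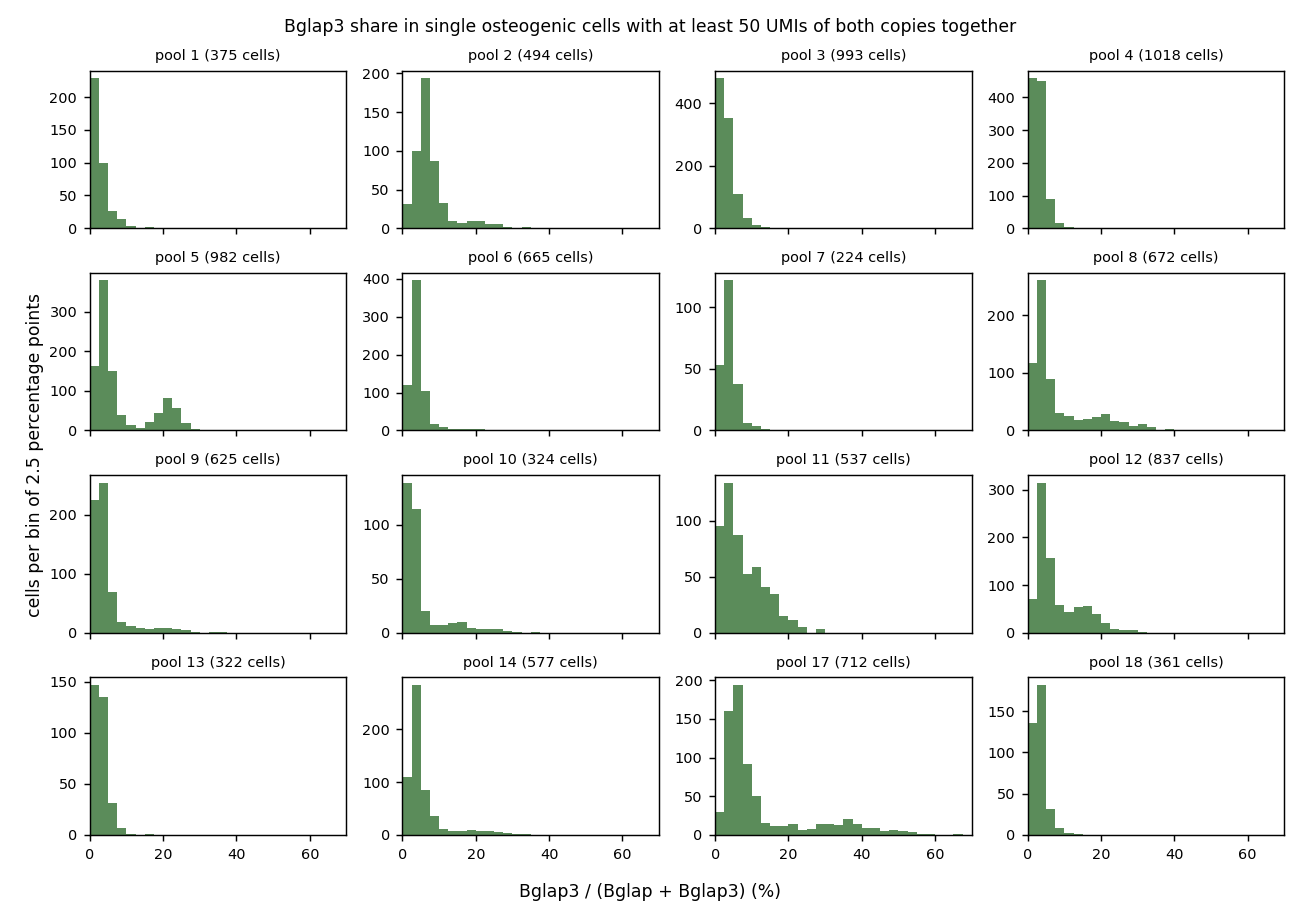
Number of osteogenic cells of each pool (bars, bins of 2.5 percentage points) by the share of *Bglap3* in the UMIs of *Bglap* and *Bglap3* (%), for cells with at least 50 of these UMIs. Pools 5 and 17, with 23.4% and 23.7% of cells over 15%, have a second group of bars to the right of the main one, and pools 4, 7, 13 and 18 have no cell over 15%.

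Sex-linked transcripts, which tell cells of female and male mice apart, moved with these splits in some pools. Cells were counted by UMIs of *Xist*, the inactive X chromosome's RNA, and of the Y-linked genes *Ddx3y*, *Eif2s3y*, *Kdm5d* and *Uty*. In pool 5, of the cells under 2% for *Bglap2*, 0 had *Xist* only and 172 had Y-linked UMIs only, against 122 and 617 of the rest. In pool 10 the cells under 2% were 28 with *Xist* only and 0 with Y-linked only, against 133 and 148 of the rest, and in pool 11 they were 3 and 161, against 156 and 229. For high *Bglap3*, pool 12 had 128 cells with *Xist* only and 1 with Y-linked UMIs only, against 218 and 358 of the rest, pool 14 had 43 and 0 against 115 and 313, and pool 9 had 35 and 0 against 191 and 304. On the Y-linked side, pool 5 had 0 and 197 against 108 and 543, and pool 11 had 2 and 56 against 141 and 266. Both kinds were found in pool 8, with 40 and 78 against 192 and 284, and in pool 10, with 14 and 11 against 126 and 124. Some cells carried UMIs of both kinds, among them 77 of 731 in pool 6 and 71 of 634 in pool 14. In pools 5, 10 and 11 these were 7, 1 and 11 of the cells under 2% for *Bglap2*, against 43, 27 and 27 of the rest, and the part of such cells in the splits was not tested. In pools 5, 10 and 11 for *Bglap2* and in pools 5, 9, 11, 12 and 14 for *Bglap3*, cells with the unusual proportion thus carried mostly the transcripts of 1 sex although the pool held both. Which sex it was differed between pools. Pools 1, 2, 3, 17 and 18 held nearly no cells with *Xist* only. Pool 4 held 916 cells with *Xist* only and 1 with Y-linked UMIs only, and pool 6 held 607 and 24. The pools thus differed in sex, and its part in differences between pools was not tested. Whether the splits follow single mice was not tested.

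Across pools, 6 relations were examined, each with n = 16. The summed level in OB1-like cells rose with that in leukocytes of the same pool by rank (Spearman's rho = 0.641, permutation p = 0.00869, adjusted 0.0396), while Pearson's r was 0.547 (permutation p = 0.0278, adjusted 0.167) and 0.800 without the 2 pools farthest from the median level. *Bglap* and *Bglap3* in OB1-like cells had rho = 0.615 (permutation p = 0.0132, adjusted 0.0396) and r = 0.332 (permutation p = 0.205, adjusted 0.366), with r = 0.231 without 2 pools, so the linear relation did not hold. Without pool 18 the first relation passed on both scales (r = 0.840, adjusted permutation p = 0.000360, and rho = 0.896, adjusted permutation p = 0.000240). Without pool 13 neither rank relation passed, with rho = 0.650 (adjusted permutation p = 0.0614) and rho = 0.532 (adjusted permutation p = 0.135).

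*Bglap* and *Bglap2*, the neighbouring copies, did not pass across all pools (r = 0.305, permutation p = 0.246, adjusted 0.366, and rho = 0.432, permutation p = 0.0962, adjusted 0.144, with r = 0.471 without the 2 farthest pools). Without pool 18 they did, with r = 0.692 (adjusted permutation p = 0.0190) and rho = 0.739 (adjusted permutation p = 0.00690). *Bglap2* and *Bglap3* had r = 0.463 (permutation p = 0.0675, adjusted 0.202) and rho = 0.338 (permutation p = 0.200, adjusted 0.240), with r = 0.261 without 2 pools. The summed level against the share of osteogenic cells in the pool had r = 0.274 (permutation p = 0.305, adjusted 0.366) and rho = 0.447 (permutation p = 0.0836, adjusted 0.144), with r = 0.0743 without 2 pools, and rho was 0.607 without pool 18 (adjusted permutation p = 0.0285). Against the median depth of OB1-like cells it had r = 0.174 (permutation p = 0.515, adjusted 0.515) and rho = 0.112 (permutation p = 0.684, adjusted 0.684), with r = 0.0927 without 2 pools.

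The other genes of the pathway are given by lists, leaving out class markers, with log2 fold changes from the same edgeR fits; higher or lower is written of genes past an adjusted p of 0.05, of which the shares over all genes in 1 direction are given above. In the other direction, 40.9% of all genes were lower in OBP-like than in LMP-like cells and 26.5% lower in OB1-like than in OBP-like cells, and 28.2% were higher in OB2-like and 22.2% higher in Ocy-like than in OB1-like cells. Of the bone matrix genes, 5 of 5 were higher in OBP-like than in LMP-like cells, with a median log2 fold change of 2.08 against -0.03 over all genes. *Ibsp*, which encodes bone sialoprotein, was higher by 2.97 and *Col1a1*, the main bone collagen, by 2.87, less than *Bglap*. From OBP-like to OB1-like cells 4 rose and 1, the osteopontin gene *Spp1*, fell by -0.41, with a median of 0.57. In OB2-like against OB1-like cells 3 were lower and 1 higher, and *Ibsp* was at -0.81. From OB1-like to Ocy-like cells only 2 of 5 fell, *Spp1* at -1.16 and *Sparc* at -0.12, while *Col1a1* was at -0.02 and *Ibsp* at 0.06 without passing, in the comparison where all 3 osteocalcin copies were lower.

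Known regulators of osteocalcin transcription were mixed. In OBP-like against LMP-like cells 10 of 17 were higher and 5 lower, with a median of 0.39. *Dlx3* and *Msx2*, which encode homeobox transcription factors, were higher by 3.02 and 1.19. From OBP-like to OB1-like cells 8 of 16 rose and 4 fell, among them *Cebpb* (1.20), which encodes a leucine zipper factor, *Vdr* (0.87), which encodes the vitamin D receptor, *Hey1* (0.83) and *Sp7* (-0.79), which encodes osterix. *Vdr* was lower than in OB1-like cells both in OB2-like (-1.19) and in Ocy-like cells (-1.07), where 6 and 5 of 16 regulators were lower and 5 and 4 higher. *Cebpb* was at -0.74 in OB2-like cells, where it passed, and at 0.02 in Ocy-like cells, where it did not.

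The vitamin K cycle and the other Gla proteins, whose glutamates are carboxylated like those of osteocalcin, changed in both directions. From LMP-like to OBP-like cells 4 of 9 were higher and 5 lower (median of -0.57). *Vkorc1* (1.56), which encodes the vitamin K epoxide reductase, and *Ggcx* (1.29), which encodes the carboxylase itself, were higher, whereas the Gla protein genes *Mgp* (-2.61), which encodes an inhibitor of calcification, and *Gas6* (-2.29), which encodes a receptor tyrosine kinase ligand, were lower. From OBP-like to OB1-like cells 2 of 9 were higher and 4 lower (median of -0.14). *Gas6* rose by 1.11 and *Mgp* was at -1.66, and *Vkorc1* (-0.10) and *Ggcx* (0.06) did not pass. In OB2-like against OB1-like cells 4 of 9 were higher and 2 lower (median of 0.11). In Ocy-like against OB1-like cells 5 of 8 were lower and 1 higher, with *Gas6* at -1.46 and *Vkorc1* at -0.36.

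Of the genes for osteocalcin receptors and processing, 5 of 9 could be tested, and none of the proposed receptors was among them. All 5 were higher in OBP-like than in LMP-like cells, led by the proprotein convertase genes *Pcsk6* (4.32) and *Pcsk5* (1.78). *Pcsk6* rose further to OB1-like cells (0.56) and to Ocy-like cells (0.67 over OB1-like), where osteocalcin fell. Of the 5, 2 were higher and 2 lower in OB1-like than in OBP-like cells. Against OB1-like cells, 1 was higher and 2 lower in Ocy-like cells, and 0 were higher and 3 lower in OB2-like cells, *Pcsk6* among them. Of the neighbouring genes on chromosome 3, 4 of 6 could be tested. In OBP-like against LMP-like cells *Pmf1* was lower (-0.72) and *Glmp* higher (0.23, a direction that turned to -0.08 with library totals alone), and none of the 4 passed from OBP-like to OB1-like cells, where the 3 copies rose. Against OB1-like cells, where the copies were lower, 2 of 4 were lower in OB2-like cells (*Smg5* and *Slc25a44*) and 1 of 4 in Ocy-like cells (*Pmf1*), with 0 higher in both. The median log2 fold changes of the 4 were -0.17 and -0.14.

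The 10 genes whose level went most closely with the summed copies over 148 pool-by-class sums, out of 8198 genes, had Pearson correlations of log2(CPM + 10) from 0.956 down to 0.935. In order they were *Col11a1*, *Col22a1*, *Col1a1*, *Adgrd1*, *Col13a1*, *Ibsp*, *Col1a2*, *Col11a2*, *Ifitm5* and *Pdgfrl*. *Col11a1* and *Ifitm5* are class markers and *Col1a2* helped to define the mesenchymal side, and sums of 1 pool share their library. Blood cell types are among the sums, so genes that differ between mesenchymal and blood cells can rank high. Across the 16 pools within OB1-like cells alone, out of 6730 genes, the closest were *Ndufa1* (0.853), *1810058I24Rik* (0.838), *Ptprs* (0.789), *Trp53bp2* (0.755) and *Bcl2l11* (0.750). With *Bglap*, which makes up most of the sum, their correlations were 0.701 to 0.856, and with *Bglap2* 0.244 to 0.506. None of these was among the 10 genes closest over classes. These correlations are a description, with no test.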

How the data were processed

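The measurements are single-cell RNA-seq UMI counts of BMSC-OBs from 16 pools of DO mice, each sequenced in 2 runs (32 samples). Per the submitters' processing notes, the authors used Cell Ranger 5.0.0 and mm10, and they deposited for each sample a matrix of raw UMI counts, genes by barcodes, without normalization and from before their cell filters, removal of doublets and genotype-based demultiplexing. The annotation release is not given in the sources used here; gene models were taken from GENCODE M21 by gene identifier. Of the barcodes of run 1, 98.2% were also in run 2 of the same pool, so run 1 was analysed and run 2 served as an alternative.

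Cells were kept with 400 to 6200 detected genes and at most 10% mitochondrial, 20% *Rpl* and 15% *Rps* UMIs. No doublet caller was run, and the upper limit on genes was the only filter on doublets before classes were set. The limits on marker UMIs of the other side can also leave out doublets of leukocytes with mesenchymal cells. Leukocytes had at least 20 UMIs of 8 leukocyte markers per 10000 and no more mesenchymal than leukocyte marker UMIs. Mesenchymal cells had at most 5 of these and at least 10 UMIs of 5 mesenchymal markers per 10000, and at least 2000 UMIs. Each was given the class with the highest mean z-score of log2(UMIs per 10000 + 1) over its markers, if that was at least 0.25 and led the next class by 0.25. The members, markers and gene lists were chosen with earlier results of these data known. A pool entered a comparison with 20 or more cells in both classes, which gave 14 pools for OB2-like cells.

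Counts were summed per pool and class. Levels are UMIs of a gene per 10000 UMIs of the sum, given as the mean and SD over pools. Shares at equal depth are the hypergeometric expectation after thinning each cell to 2000 UMIs, without shallower cells, and for the values at full depth all cells were used. Levels and copy shares were compared within pools by exact sign-flip permutation tests, and relations across pools with 100000 permutations, all two-sided and with Benjamini-Hochberg adjustment. Summed counts were tested with edgeR 4.0.16 under R 4.3.3 (quasi-likelihood test, TMM, filterByExpr, pool as a block, adjusted p of at most 0.05 over all genes), and SE values were computed as |log2 fold change| / √F. The pairing is that of the design, as 2 classes of a pool share 1 droplet library. As a check, deviations from the mean of each class had a lowest same-pool correlation of 0.05 (LMP-like against leukocytes) and of at least 0.16 in the other comparisons. The fit was tested on simulated data.

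Named genes are the 3 members, for each list and comparison at most 4 genes with the largest absolute fold change past the threshold (also followed into the next comparisons), and the 10 and 5 genes most like the summed members. Alternatives were run 2, DESeq2 1.42.0, RLE size factors, library totals, no filter on low counts, no replicate block, no upper limit on genes, a class margin of 0.5, at least 50 cells, thinning to 1000 UMIs and leaving out pool 13; leaving out pool 18 was added after seeing the data. Coding sequences come from GENCODE M21 transcripts and promoters from a RefSeq table (GRCm38.p6), where 2 of the 3 members matched (*Bglap* and *Bglap3*, not *Bglap2*).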

Additional observations from a re-analysis of the deposited data

How the results depend on the processing

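Of 264 log2 fold changes of the members recomputed under alternatives, 252 kept their direction and their side of the threshold, as did 59 of 60 comparisons of copy shares and 28 of 36 relations across pools, 140 of 140 levels moved by less than their SD over pools, and 11 of 28 shares of cells with a UMI moved by more. The fold changes that did not keep theirs lay in LMP-like and MALP-like cells against leukocytes and in MALP-like against LMP-like cells. Without the replicate block for the pool, calls were lost for *Bglap3* in LMP-like cells against leukocytes (0.52, edgeR adjusted p = 0.0916) and in MALP-like against LMP-like cells (-0.62, edgeR adjusted p = 0.0702), and for *Bglap* (0.38, edgeR adjusted p = 0.110) and *Bglap2* (0.46, edgeR adjusted p = 0.242) in MALP-like cells against leukocytes; no other call of a member changed, but the genes called in Ocy-like against OB1-like cells went from 4538 to 2935. *Bglap3* in LMP-like cells against leukocytes was also lost with no upper limit on genes (0.29), in run 2 (0.31) and with stricter class boundaries (0.25), with edgeR adjusted p-values of 0.125, 0.0954 and 0.195. Stricter boundaries gave 0.02 for *Bglap*, 0.19 for *Bglap2* and -0.31 for *Bglap3* (edgeR adjusted p = 0.0289, now past the threshold) in MALP-like cells against leukocytes, and library totals turned *Bglap3* there to 0.20 (edgeR adjusted p = 0.147). The cause of these changes was not tested.

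Library totals moved the median log2 fold change of all genes from -0.03 to -0.34 in OBP-like against LMP-like cells and from -0.03 to 0.33 in MALP-like cells against leukocytes, and by amounts between these in the other comparisons. The share of called genes that were higher in the first class went from 47.2% to 23.5% in OBP-like against LMP-like, 51.5% to 25.9% in OB1-like against OBP-like, 50.6% to 61.3% in OB2-like against OB1-like, 48.5% to 73.8% in Ocy-like against OB1-like, 49.9% to 72.7% in MALP-like against LMP-like cells and 48.5% to 65.5% in MALP-like cells against leukocytes.

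Pool 13 and, chosen after seeing the data, pool 18 were left out in turn. *Bglap* in MALP-like cells against leukocytes then ranged from 0.28 to 0.37, and the *Bglap2* copy share of OB2-like cells minus leukocytes from 4.63 to 5.12 percentage points. Among relations with the summed level in OB1-like cells, depth had r from -0.0738 to 0.251 and rho from -0.0786 to 0.193, the leukocyte level had r from 0.555 to 0.840 and rho from 0.650 to 0.896, and the share of osteogenic cells had rho from 0.407 to 0.607. *Bglap* against *Bglap3* had rho from 0.532 to 0.639, and against *Bglap2* r from 0.245 to 0.692 and rho from 0.364 to 0.739.

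The 11 shares of cells with a UMI that moved by more than their SD did so at 1000 UMIs per cell in place of 2000. The share with a *Bglap* UMI was then 26.2% in LMP-like, 17.5% in MALP-like, 71.7% in OBP-like, 91.5% in OB1-like and 66.6% in Ocy-like cells and 17.5% in leukocytes, and with any of the copies 34.5% in LMP-like, 24.2% in MALP-like, 94.1% in OB1-like and 72.2% in Ocy-like cells and 25.3% in leukocytes. Such shares hold only for the depth at which they are given.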
